A study of Drosophila melanogaster with 2 samples.

Results

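The 96 genes described here encode chitin-binding cuticle proteins of the Drosophila exoskeleton, and they were chosen by symbol from the 15627 genes of the table: those named Cpr, Lcp, Ccp84A, Pcp or Edg followed by their number or letter. Genes named Acp65A were left out. The rule used symbols and no measured value, although results of these data were known when it was written. The 96 consisted of 70 Cpr, 15 Lcp, 7 Ccp84A and 3 Edg genes and Pcp. All 96 were found under the same symbol and on the same chromosome arm in the RefSeq table of the Release 6 assembly, and 77 had a description in the deposited table that named a cuticular or cuticle protein.

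Chromatin of w1118 embryos, a white-eyed laboratory stock, was immunoprecipitated with an antibody against dBigH1, the linker histone variant of the early embryo, and sequenced as 1 ChIP library. DNA of embryos of the same stock and age, with no antibody, was sequenced as 1 input library. The embryos were whole and had been collected 0 to 2 h after fertilization. The comparison addresses how dBigH1 is distributed over these genes relative to the input. With 1 library a group, the values below could not be checked against replicates, and no difference was tested.

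Insect cuticle is a composite of chitin fibres and proteins that the epidermis secretes, and a new cuticle is laid down for each larval, pupal and adult stage. Most of its structural proteins carry the Rebers and Riddiford sequence, which binds chitin, and the Cpr genes are named for it. These genes sit in tandem clusters that arose by duplication, and they are used by epidermal cells after the stage studied here, under the control of moulting hormone. In the early fly embryo dBigH1 takes the place of somatic histone H1 on chromatin until the zygotic genome becomes active.

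Values are RPKM, reads scaled by gene width and by the library's total reads, over the whole gene with its introns. The ratio given for a gene is log2((ChIP RPKM + 1)/(input RPKM + 1)), in which the added 1 RPKM understates the ratio of genes with little signal. Intervals are exact 95% Clopper-Pearson intervals of the ChIP share of a gene's reads on the same scale. Such an interval describes the error of counting and nothing else, and PCR copies of a molecule count as separate reads in it. The libraries had been scaled to 8803832 ChIP and 6272887 input reads. Each member rested on few reads, from 15 to 944 in the ChIP (median 42.5) and from 11 to 628 in the input (median 30). The median width of the members was 819 bp, against 1852 bp over all genes.

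Over the cuticle protein genes as a whole, dBigH1 ChIP signal was close to input. Because RPKM divides by total reads, this means, here and below, that the genes held similar shares of ChIP and input reads. Such values are relative to the rest of the library, and the amount of dBigH1 bound to the genes cannot be read from them. The members had a median of 5.95 RPKM in the ChIP and 5.92 RPKM in the input, both of them under the medians over the whole table, which were 6.38 RPKM in the ChIP and 6.51 RPKM in the input. In the ChIP, 40 of the 96 exceeded the median of all genes, and in the input 29 did. The median log2 ratio of the members was -0.0095, with quartiles of -0.14 and 0.18, against -0.04 over all genes, with quartiles of -0.23 and 0.14. Relative to the median of all genes the members' median was 0.03, so its sign depends on whether the libraries are centred. By number, 53 members (55.2%) exceeded the median of all genes and 43 were under it. When their 8312 ChIP and 5857 input reads were summed, the log2 ratio was 0.02 (interval -0.03 to 0.06), against 0.0051 for the summed reads of all genes.

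The members differed from each other by about as much as read counting gives. Without the added 1 RPKM, the SD of the log2 ratio over the 96 genes was 0.33, and the counting error of their reads (the root mean square of the error of each gene's log2 ratio for Poisson reads) was 0.34. Over all genes the same values were 0.42 and 0.34. The longest members gave the sharpest view: over the 17 of 2000 bp or more the SD was 0.17 and the counting error 0.15, and their ratios ran from -0.31 to 0.27. The median width of the members' intervals was 1.21 log2 units, which limits what 1 short member can show.

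**Figure D1:**
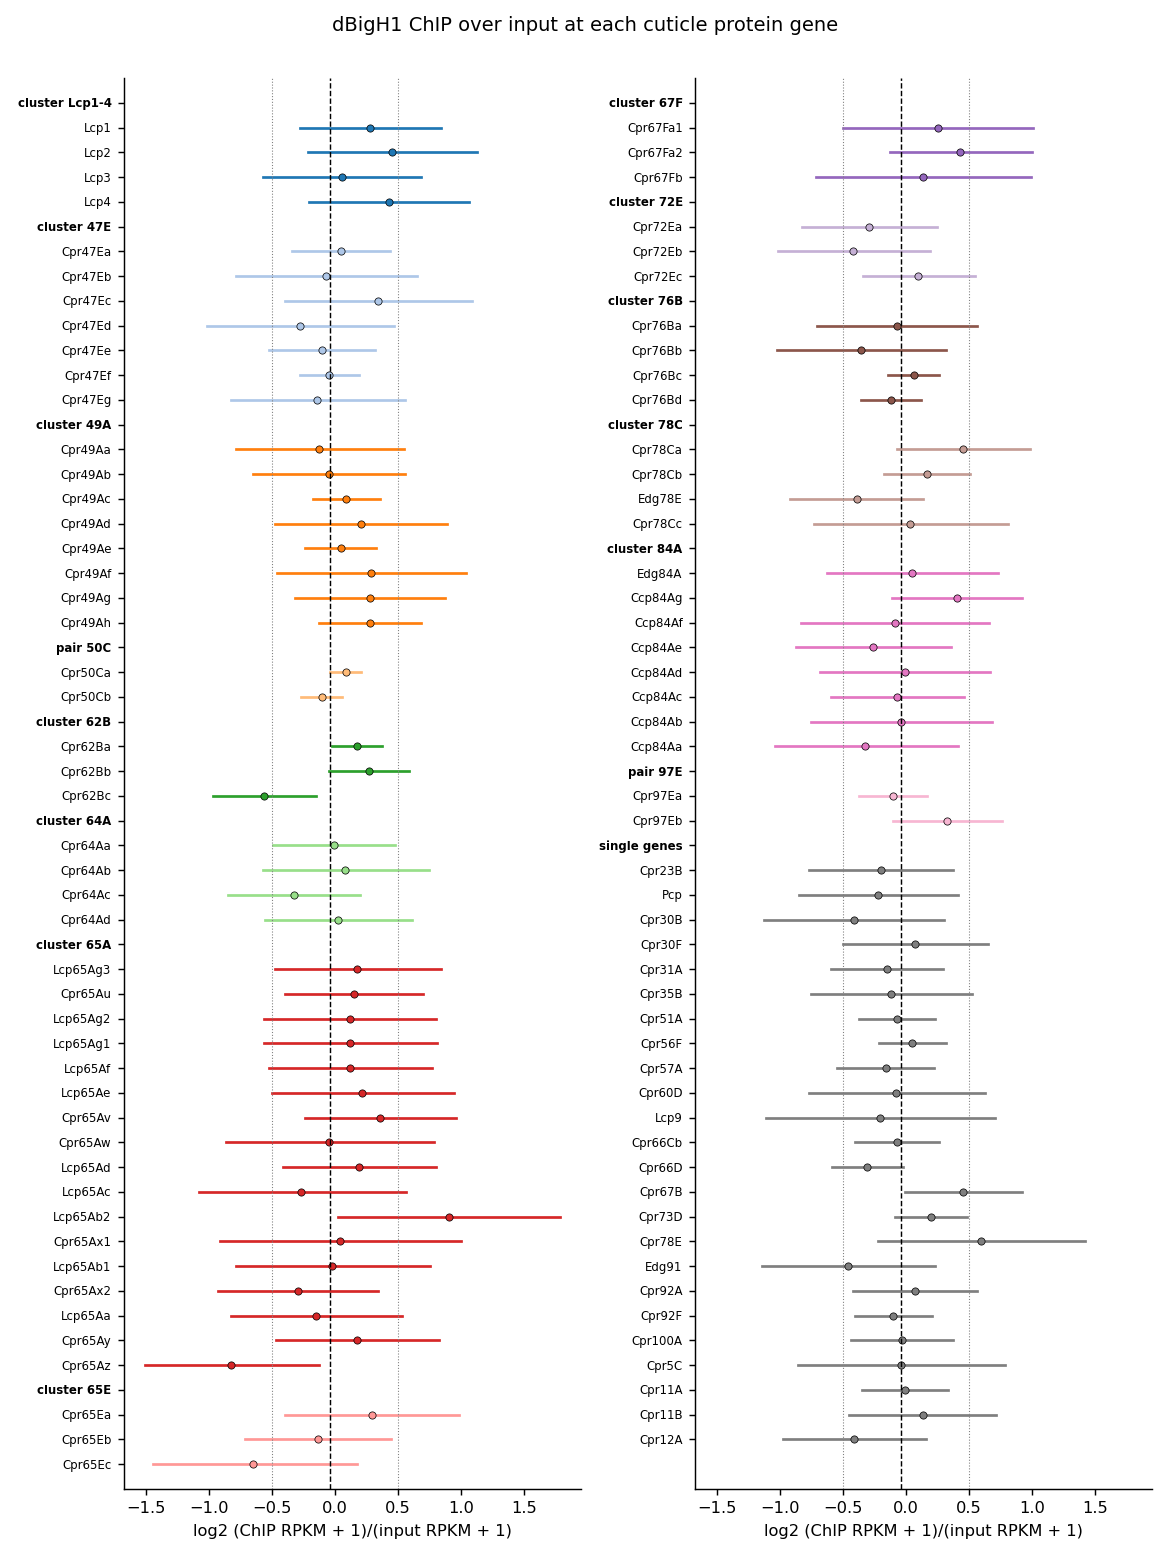
Log2 ratio of dBigH1 ChIP to input for each of the 96 cuticle protein genes (points) with its 95% counting interval (bars), by cluster and in order along the chromosome arm, with single genes last. The dashed line is the median of all genes at -0.04 and the dotted lines mark 0.5 and -0.5. The intervals of 91 genes include the dashed line.

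Few members stood apart. A log2 ratio of at least 0.5 was reached by 2 of the 96 (2.08%), against 4.53% of all genes, and one of at most -0.5 by 3 (3.13%), against 7.31% of all genes. Both shares were below the background with 1 RPKM added. The interval of 3 members (3.13%) lay wholly above the median of all genes, as did that of 10.6% of all genes, and the interval of 2 members (2.08%) wholly below it, as for 9.59% of all genes. Whether an interval excludes that median depends on read depth, and the members had a median of 30 input reads, against 74 over all genes. Of 2130 other genes under 600 bp, 57 had an interval above it and 70 below it. Of 7304 other genes of 2000 bp or more, 1234 had one above and 973 below. A ratio of at least 0.25 was found in 18 members (18.8%, against 14.6% of all genes) and one of at most -0.25 in 17 (17.7%, against 23.1%), which left 61 members (63.5%) between these values, against 62.4% of all genes. No member reached 1 or -1, values passed by 0.787% and 1.17% of all genes.

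The highest member was Lcp65Ab2, a larval cuticle protein gene, with 8.74 RPKM in the ChIP against 4.22 RPKM in the input and a log2 ratio of 0.90 (interval 0.02 to 1.79). It rested on 32 ChIP and 11 input reads, the fewest input reads of any member together with Cpr65Ax1. Its near-identical neighbour Lcp65Ab1 had 7.98 RPKM in the ChIP against 8.11 RPKM in the input, a ratio of -0.02. The symbol cell of both genes lists both names, so reads may have been split between the copies, which was not tested. Summed over the pair, 61 ChIP and 32 input reads gave a log2 ratio of 0.44 (interval -0.20 to 1.11). Cpr78E followed, with 6.44 RPKM in the ChIP against 3.92 RPKM in the input, a ratio of 0.60 (interval -0.22 to 1.42) from 30 ChIP and 13 input reads. Both genes had fewer than 20 input reads. Among the 82 members with at least 20, 0 reached 0.5, against 2.1% of all genes filtered alike, and 2 lay at -0.5 or below, against 5.84%. The filtered genes had a median of 87 input reads, against 33 for the 82 members. Input is the denominator of the ratio, so the filter drops high ratios more than low ones. Over all genes the high share fell from 4.53% to 2.1% and the low share from 7.31% to 5.84%.

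The lowest member was Cpr65Az, the last gene of the 65A cluster, with 2.93 RPKM in the ChIP against 5.96 RPKM in the input and a ratio of -0.82 (interval -1.51 to -0.12). Cpr65Ec had 2.67 RPKM in the ChIP against 4.75 RPKM in the input, a ratio of -0.65, but its interval of -1.44 to 0.17 included the median of all genes. Cpr62Bc was the most deeply covered of the 3, with 4.41 RPKM in the ChIP against 6.98 RPKM in the input from 70 ChIP and 79 input reads and a ratio of -0.56 (interval -0.97 to -0.15). All 5 genes past 0.5 in either direction lie on 3L, which holds 46 of the 96 members. Nearest inside the thresholds were Lcp2 at 0.45 and Edg91 at -0.46.

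**Figure D2:**
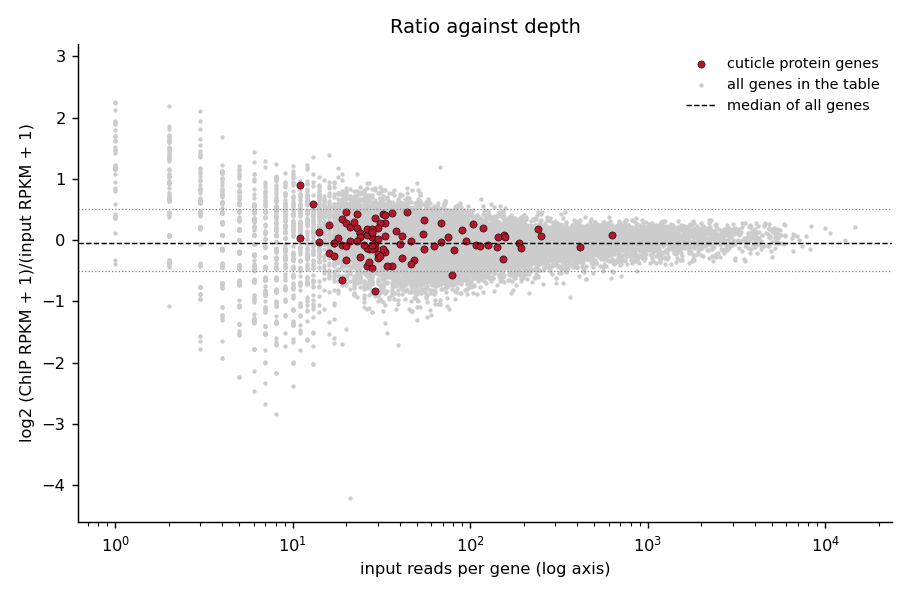
Log2 ratio of dBigH1 ChIP to input against input reads per gene (log axis), for the cuticle protein genes (red) and all genes of the table (grey). The dashed line is the median of all genes at -0.04, and the dotted lines mark 0.5 and -0.5. The members lie between 11 and 628 input reads, inside the cloud of all genes at the same depth.

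By position, 68 of the 96 members fell into 12 clusters, defined as runs of at least 3 members with at most 20 kb between neighbours. Another 4 formed 2 pairs and 24 stood singly. The clustered members had a median log2 ratio of 0.05 and summed reads at 0.05 (interval -0.02 to 0.11). The single members had a median of -0.07 and summed reads at -0.06 (interval -0.15 to 0.04), so the intervals of clustered and single genes overlapped. Cluster medians ran from -0.30 to 0.35 with an SD of 0.18, while members of the same cluster differed by an SD of 0.28. The interval of the summed reads of each of the 12 clusters included the value of all genes' summed reads, with 6 clusters above it and 6 below.

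The larval cuticle protein genes Lcp1 to Lcp4, whose products are major proteins of the soft cuticle of late larvae, had the highest cluster median. They lie at chr2R:4317801-4326000 (dm3). Lcp1 had 7.03 RPKM in the ChIP and 5.61 RPKM in the input. Lcp2 had 5.98 RPKM in the ChIP and 4.09 RPKM in the input, the highest ratio of the 4 at 0.45 (interval -0.22 to 1.13). All 4 genes had more scaled signal in the ChIP than in the input. Lcp3 was lowest, with 5.93 RPKM in the ChIP and 5.68 RPKM in the input and a ratio of 0.05, and Lcp4 had 6.15 RPKM in the ChIP and 4.32 RPKM in the input, a ratio of 0.43. The median of the 4 was 0.35 and their summed reads, 186 in the ChIP and 104 in the input, gave 0.35 (interval -0.0042 to 0.71). No gene of the 4 had an interval that excluded the median of all genes. The pseudogene of Lcp1 inside the cluster, which is not among the 96, went the other way, with 5.46 RPKM in the ChIP and 10.2 RPKM in the input, a ratio of -0.80 (interval -1.50 to -0.08). How alike the pseudogene and Lcp1 are in sequence, and whether reads were placed correctly between them, was not tested.

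The 65A cluster was the largest, with 17 genes in 31.2 kb at chr3L:6123486-6154689: 10 Lcp65A genes and 7 Cpr65A genes. Its median log2 ratio was 0.12 and its summed reads gave 0.07 (interval -0.11 to 0.26) from 609 ChIP and 412 input reads. Of the 17, 12 had a ratio above the all-gene median of -0.04 and 5 a lower one. The Lcp65A genes had a median of 0.12 and 8 of 10 above the median of all genes. The Cpr65A genes had a median of 0.04 and 4 of 7 above it. Their summed reads, at 0.15 (interval -0.09 to 0.39) for the Lcp65A genes and -0.03 (interval -0.31 to 0.26) for the Cpr65A genes, had overlapping intervals.

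Along the cluster, the first 7 genes from Lcp65Ag3 to Cpr65Av all had ratios above 0, although the interval of each included 0. The run was set off after its values were seen and ends where the sign changed. Lcp65Ag3 had 7.90 RPKM in the ChIP and 6.86 RPKM in the input, a ratio of 0.18. Cpr65Au had 8.57 RPKM in the ChIP and 7.62 RPKM in the input, a ratio of 0.15, and Cpr65Av had 8.16 RPKM in the ChIP and 6.15 RPKM in the input, a ratio of 0.36 (interval -0.24 to 0.96). Lcp65Ag1 and Lcp65Ag2, near-identical copies, had the same 37 ChIP and 24 input reads each, and Lcp65Ag2 was the member nearest the cluster's median. Among 12627 pairs of adjacent genes with at least 20 input reads in the table, 141 shared both read counts. These pairs include overlapping genes, which can hold the very same reads, so the count gives no rate for separate genes. Beyond Cpr65Av the ratios were mixed. Lcp65Ac had 3.75 RPKM in the ChIP and 4.71 RPKM in the input and Cpr65Ax2 had 4.69 RPKM in the ChIP and 5.98 RPKM in the input, ratios of -0.27 and -0.30. The genes with a doubled symbol cell (Lcp65Ab1, Lcp65Ab2, Lcp65Ag1, Lcp65Ag2, Cpr65Ax1 and Cpr65Ax2) included the gene at the median of the cluster, and the median of the other 11 was 0.15.

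**Figure D3:**
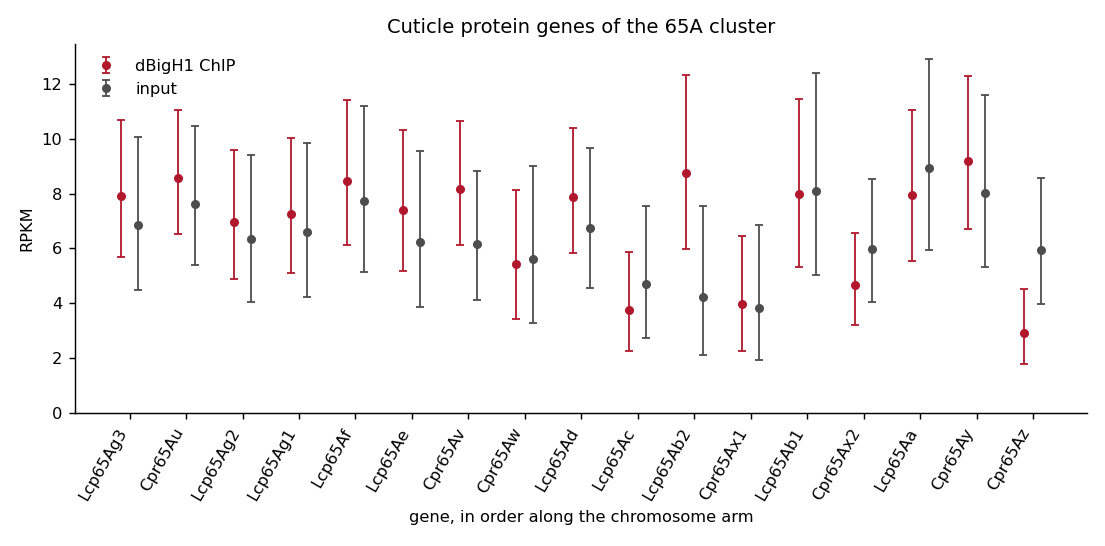
RPKM of each gene of the 65A cluster in the dBigH1 ChIP (red) and the input (grey), in order along the chromosome arm, with exact 95% Poisson intervals of the reads. The intervals of ChIP and input overlap at every gene, including Lcp65Ab2 (8.74 RPKM in the ChIP and 4.22 RPKM in the input) and Cpr65Az (2.93 RPKM in the ChIP and 5.96 RPKM in the input).

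The Ccp84A genes were close to input and low in both libraries. The 84A cluster, at chr3R:2510172-2530625, holds the 7 Ccp84A genes and Edg84A, a gene that depends on ecdysone. It had a median ratio of -0.05 and summed reads at -0.0095 (interval -0.27 to 0.25). Ccp84Ag was highest, with 5.63 RPKM in the ChIP and 4.01 RPKM in the input and a ratio of 0.40 (interval -0.11 to 0.92). Ccp84Aa was lowest, with 2.90 RPKM in the ChIP and 3.88 RPKM in the input and a ratio of -0.32, and Ccp84Ac (-0.07) lay nearest the median. Edg84A had 5.81 RPKM in the ChIP and 5.59 RPKM in the input, a ratio of 0.05. Signal was low in both libraries at Ccp84Ab, with 2.87 RPKM in the ChIP and 2.97 RPKM in the input, which was the lowest input value of the 96.

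The other genes named Edg, Edg78E and Edg91, had less ChIP than input. Edg78E had 5.13 RPKM in the ChIP and 7.04 RPKM in the input, a ratio of -0.39 (interval -0.92 to 0.14). Edg91 had 4.68 RPKM in the ChIP and 6.80 RPKM in the input, a ratio of -0.46 (interval -1.14 to 0.23). Both intervals included the median of all genes, and summed over the 3 Edg genes the ratio was -0.34 (interval -0.74 to 0.07). Pcp, a pupal cuticle protein gene that lies inside the purine synthesis gene ade3, had 5.02 RPKM in the ChIP and 6.04 RPKM in the input, a ratio of -0.23 (interval -0.85 to 0.41). Its host ade3 had 5.48 RPKM in the ChIP and 6.25 RPKM in the input, a ratio of -0.16 (interval -0.34 to 0.01), with Pcp's own span included.

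Among the clusters made of Cpr genes, 49A had the most ChIP signal. Its 8 genes at chr2R:8264175-8302675 had a median of 8.33 RPKM in the ChIP and 7.17 RPKM in the input, a median ratio of 0.15, and summed reads at 0.13 (interval -0.04 to 0.29). Cpr49Ah had the highest level of all 96 members in both libraries, with 11.1 RPKM in the ChIP and 8.97 RPKM in the input and a ratio of 0.28 (interval -0.12 to 0.69). Cpr49Af was marginally the highest by ratio at 0.28, with 9.06 RPKM in the ChIP and 7.26 RPKM in the input, and Cpr49Aa the lowest at -0.12, with 5.29 RPKM in the ChIP and 5.85 RPKM in the input. The well covered Cpr49Ac lay nearest the median, with 8.53 RPKM in the ChIP and 7.94 RPKM in the input and a ratio of 0.09 (interval -0.18 to 0.36).

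The 47E cluster, 7 genes at chr2R:7139256-7165946, had a median of -0.07 and summed reads at -0.04 (interval -0.23 to 0.14). It ran from Cpr47Ed, with 6.42 RPKM in the ChIP and 8.0 RPKM in the input (ratio -0.28), through Cpr47Eb, with 3.48 RPKM in the ChIP and 3.72 RPKM in the input (-0.07), to Cpr47Ec, with 7.60 RPKM in the ChIP and 5.79 RPKM in the input (0.34). Its longest gene, Cpr47Ef, which had 253 ChIP and 187 input reads, was at -0.04 (interval -0.28 to 0.19), the same as the median of all genes to 2 decimals.

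The 62B cluster held genes that differed from each other by more than their counting error. It lies at chr3L:1824129-1842084 and its 3 genes are on the same strand. Cpr62Ba had 5.76 RPKM in the ChIP and 4.98 RPKM in the input from 388 ChIP and 239 input reads, a ratio of 0.18 (interval -0.02 to 0.38). Cpr62Bb had 8.04 RPKM in the ChIP and 6.49 RPKM in the input, a ratio of 0.27 (interval -0.04 to 0.59). Of these genes, Cpr62Ba had an interval above the median of all genes. The neighbouring Cpr62Bc was at -0.56 and its interval of -0.97 to -0.15 did not overlap that of either gene. The SD of the 3 ratios without the added RPKM was 0.53, against a counting error of 0.18. Summed over the cluster the ratio was 0.11 (interval -0.07 to 0.29).

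Runs of 3 genes elsewhere on 3L lay on both sides of the input. In 67F (chr3L:10883090-10887793) all 3 genes had more ChIP than input. Cpr67Fa2 was highest, with 8.91 RPKM in the ChIP and 6.35 RPKM in the input and a ratio of 0.43 (interval -0.13 to 1.0), Cpr67Fa1 had a ratio of 0.25 and Cpr67Fb of 0.13. The summed reads, 113 in the ChIP and 62 in the input, gave 0.38 (interval -0.08 to 0.85). In 72E (chr3L:16355703-16360440) the summed reads gave -0.17 (interval -0.51 to 0.17). Cpr72Eb was lowest there, with 5.05 RPKM in the ChIP and 7.09 RPKM in the input (-0.42), Cpr72Ea was at -0.30, and Cpr72Ec, which codes for a protein of the corneal lens, was highest, with 6.44 RPKM in the ChIP and 5.95 RPKM in the input (0.10). In 65E (chr3L:7079103-7086941) Cpr65Ea was at 0.29, Cpr65Eb at -0.14 and Cpr65Ec at -0.65. The 65E median of -0.14 became 0.08 among genes with at least 20 input reads, since Cpr65Ec then dropped out.

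The summed reads of 64A, 76B and 78C, of 4 genes each, had intervals on both sides of 0. In 64A (chr3L:4207838-4216414), which lies wholly inside the gene CG43367, the summed reads gave -0.09 (interval -0.40 to 0.23), from Cpr64Ac (-0.33) through Cpr64Aa (-0.011) to Cpr64Ab (0.08). CG43367 itself, 30011 bp wide and including these genes, had 6.54 RPKM in the ChIP and 6.28 RPKM in the input, a ratio of 0.05 (interval -0.04 to 0.14). In 76B (chr3L:19510652-19531389) the summed reads gave -0.04 (interval -0.21 to 0.13). Most of these reads came from 2 long genes, Cpr76Bc, with 6.61 RPKM in the ChIP and 6.30 RPKM in the input (0.06, interval -0.14 to 0.26), and Cpr76Bd, with 5.0 RPKM in the ChIP and 5.52 RPKM in the input (-0.12, interval -0.35 to 0.11). The short Cpr76Bb was lowest at -0.36 and Cpr76Ba lay nearest the median at -0.07. In 78C (chr3L:21284960-21294271) the summed reads gave 0.12 (interval -0.15 to 0.39), with Cpr78Ca highest, at 8.69 RPKM in the ChIP and 6.10 RPKM in the input (0.45, interval -0.08 to 0.98), Edg78E lowest and Cpr78Cc at 0.03.

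The most deeply covered members belonged to the 50C pair. Cpr50Ca, 17888 bp wide, had 5.99 RPKM in the ChIP and 5.60 RPKM in the input from 944 ChIP and 628 input reads, a ratio of 0.08 (interval -0.04 to 0.21). Its neighbour Cpr50Cb had 5.79 RPKM in the ChIP and 6.30 RPKM in the input from 533 ChIP and 413 input reads, a ratio of -0.10 (interval -0.27 to 0.06). The intervals of these genes overlapped, and both included the median of all genes. In the 97E pair Cpr97Ea had 4.42 RPKM in the ChIP and 4.83 RPKM in the input (-0.11) and Cpr97Eb had 7.96 RPKM in the ChIP and 6.14 RPKM in the input (0.33, interval -0.10 to 0.76).

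Of the 24 single genes, which ran from Edg91 to Cpr78E, 10 were above the median of all genes and 14 under it. Cpr67B was the only one of the 24 whose interval lay above that median, with 7.34 RPKM in the ChIP and 5.09 RPKM in the input from 89 ChIP and 44 input reads and a ratio of 0.45 (interval -0.0082 to 0.92). Cpr66D, another gene of the corneal lens, had 6.07 RPKM in the ChIP and 7.75 RPKM in the input from 168 ChIP and 153 input reads, a ratio of -0.31 (interval -0.59 to -0.02). Cpr56F, which codes for the rubber-like protein resilin, had 7.25 RPKM in the ChIP and 6.97 RPKM in the input, a ratio of 0.05 (interval -0.21 to 0.31). Cpr73D was at 0.20 from 193 ChIP and 117 input reads, and Cpr30B (-0.42) and Cpr12A (-0.41) were the lowest after Edg91. Lcp9, the shortest member at 335 bp, had 6.44 RPKM in the ChIP and 7.61 RPKM in the input, a ratio of -0.21. The other 15 single genes, Pcp among them, lay between -0.23 and 0.13.

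Set against genes beside them, most clusters had counting intervals that overlapped those of their surroundings. For each cluster, the other genes within 20 kb of it that overlap no member were summed, long genes included to their ends. Neighbours that overlap each other were each counted in full. Their shared reads then enter a sum more than once, and its interval is narrower than counting error. Neighbours overlapping any other gene ranged from 0 of 3 around 84A to 5 of 5 around 65E. In 11 of 12 clusters the interval of the members' summed reads overlapped that of their neighbours', and in 7 the members were higher. The members' intervals were wide, for example -0.58 to 0.34 in 65E, so overlap does not show that members and neighbours were alike. Around Lcp1 to Lcp4 the summed reads of the 11 neighbours were also high, at 0.21 (interval 0.11 to 0.31), with a median of 0.12. Of these neighbours 9 were above the median of all genes and 2 under it, the pseudogene of Lcp1 at -0.80 being lowest. Around 49A the summed reads of the 22 neighbours gave 0.13 (interval 0.04 to 0.21), next to 0.13 for the members. By median the 49A neighbours were lower, at 0.015 against 0.15 for the members, with 12 above the median of all genes and 10 under it. Around 47E the 27 neighbours were low, at -0.21 (interval -0.30 to -0.11).

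The exception was 67F, where the 3 members were at 0.38 (interval -0.08 to 0.85) and their 7 neighbours at -0.29 (interval -0.39 to -0.20), a difference of 0.67. The neighbouring reads came mostly from tna, a chromatin gene of the trithorax group, with 7.18 RPKM in the ChIP and 9.54 RPKM in the input, a ratio of -0.37 (interval -0.47 to -0.26). The neighbours were not alike, and blos4 among them was at 0.34 (interval -0.14 to 0.83), inside the range of the Cpr67F genes. In 65E the order was reversed, with members at -0.12 (interval -0.58 to 0.34) and 5 neighbours at 0.18 (interval 0.09 to 0.26), although these intervals overlapped.

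**Figure D4:**
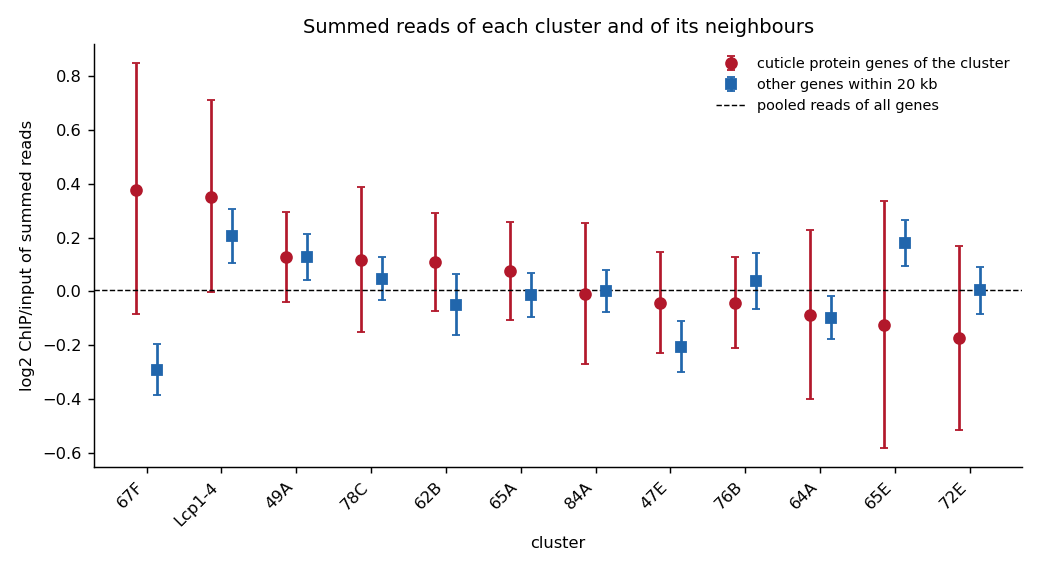
Log2 ratio of summed dBigH1 ChIP to summed input reads for the cuticle protein genes of each of the 12 clusters (red circles) and for the other genes within 20 kb that overlap none of them (blue squares), with 95% counting intervals. Reads shared by neighbours that overlap each other count once for each gene. The dashed line is the value for the summed reads of all genes, 0.0051. Every red bar crosses that line, and only in 67F do the red and blue bars not overlap.

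By chromosome arm, the members' median ratio was compared with that of the other genes of the same arm. It was 0.07 against -0.02 on 3L (46 members), 0.05 against -0.04 on 2R (26 members), -0.05 against -0.03 on 3R (14 members), -0.18 against -0.011 on 2L (6 members) and -0.02 against -0.14 on the X (4 members). On 2L, where all 6 members are single genes, 5 of the 6 were under the median of all genes, and the summed reads gave -0.19 (interval -0.46 to 0.09). The 4 genes of the X (Cpr5C, Cpr11A, Cpr11B and Cpr12A) had low levels in both libraries, with medians of 3.86 RPKM in the ChIP and 4.13 RPKM in the input. Other X genes also had less signal in both libraries than genes of the other arms, with medians of 4.62 RPKM in the ChIP and 5.06 RPKM in the input. With 6 or fewer genes, the values of 2L and the X are descriptions of those genes.

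Gene width was examined because members are short. The median ratio was 0.04 for 19 members and -0.05 for 2130 other genes under 600 bp, -0.02 for 38 members and 0.0018 for 2073 other genes from 600 to under 1000 bp, -0.05 for 22 members and -0.07 for 4024 other genes from 1000 to under 2000 bp, and 0.05 for 17 members and -0.03 for 7304 other genes 2000 bp or more. Other genes with the members' mix of widths reached 0.5 in 7.54% of cases and -0.5 in 10.2%, so the members' shares of 2.08% and 3.13% were further below the background of genes of like width than below that of all genes. Other genes under 600 bp include many much smaller ones with fewer reads: their counting error was 0.73, against 0.43 for the members in that band. Only 11 of the 96 members overlapped another gene (11.5%, against 42.0% of all genes), and 7 of these lay inside another gene. The table gives Cpr57A and the odorant-binding protein gene Obp57d the same start and end, so their reads are the same. The 85 members that overlap no gene had a median ratio of -0.01.

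Other genes of cuticle formation are given beside the background over all genes, of which 4.53% were at 0.5 or above and 7.31% at -0.5 or below. The 26 Tweedle genes, which code for another family of cuticle proteins and also sit in clusters, had a median of -0.03, with summed reads at -0.02 (interval -0.14 to 0.10). They ran from TwdlQ (-0.52, interval -1.18 to 0.15) to TwdlR (0.72, interval 0.20 to 1.25), with 2 at 0.5 or above (7.69%) and 1 at -0.5 or below (3.85%). The 23 Osiris genes, a clustered family of insect membrane proteins active in cells that make cuticle, had a median of 0.16, with summed reads at 0.11 (interval 0.03 to 0.20). They ran from Osi7 (-0.27, interval -0.58 to 0.03) to Osi13 (0.58, interval -0.04 to 1.20), with 1 past 0.5 (4.35%) and 0 past -0.5. The interval of their summed reads lay above the 0.0051 of all genes and overlapped that of the 96 members, which was -0.03 to 0.06. The difference was not tested.

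The 25 measured genes of chitin synthesis, assembly and turnover had a median of -0.07, with summed reads at 0.06 (interval 0.02 to 0.09). This list includes chitinases (the Cht genes), which break chitin down, and chitin deacetylases (such as the Cda genes). The median and the summed reads differed in sign. They ran from rtv (-0.68, interval -1.15 to -0.20), a gene of chitin fibre organization, to Gasp (0.27, interval 0.12 to 0.43), a chitin-binding protein gene of the tracheal lining, with 0 past 0.5 and 1 past -0.5 (4.0%). The 11 measured genes of cuticle tanning and pigment had a median of 0.04, with summed reads at 0.03 (interval -0.04 to 0.11). Their extremes were Pu (-0.25, interval -0.43 to -0.06), which acts in pteridine synthesis, and yellow-f2 (0.22, interval -0.20 to 0.64), and none was past 0.5 in either direction. Genes whose interval lay above the median of all genes numbered 1 of 26 Tweedle, 3 of 23 Osiris, 4 of 25 chitin and 1 of 11 tanning genes, and those below it 0, 0, 3 and 1, against 10.6% above and 9.59% below over all genes. Such counts depend on read depth, which differed between the lists.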

How the data were processed

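Per the file headers, the authors deposited log2 RPKM values of both libraries for each gene, and a score that they call a log2 fold change by MAnorm. Tools listed without roles in the submitters' processing notes are Bowtie2, CASAVA 1.9, R 2.15 and FastQC 0.10, with the build dm3. Read filters, counting tool and placement of reads that fit several sites: not given in the sources used here. Deposited log2 values behaved as log2(RPKM + 1), which gave whole reads for 100% of values, within 1e-05 reads, and hence each gene's reads. The deposited score had an SD of 1.00 and served as an alternative only. Ratios, intervals, clusters and neighbours were computed in Python 3.11.15 with numpy 2.4.6, pandas 2.3.3, scipy 1.17.1 and matplotlib 3.10.9. Recovery of reads and each gene's ratio and interval without the added 1 RPKM were tested on simulated Poisson reads. The other steps were not tested in this way.

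No test was run, since each group had 1 library. The members and lists were chosen with earlier results of these data known. Genes named are the lowest, highest and middle members of each cluster, those past 0.5, the most covered, the Lcp, Edg and Pcp genes, and the extremes of each list. Others named here were chosen after their values were seen. Alternatives were other pseudocounts, thresholds and gap sizes, centring, the score, genes with at least 20 input reads and genes that overlap none. The comparisons with arms, widths and without doubled symbols were added after the data were seen. The comparison with neighbours was planned, but leaving out neighbours that overlap a member was not in the plan. Sorting of the proteins by sequence was planned and is not reported here. Coordinates are those of dm3 in the table. The Release 6 RefSeq table was used for names.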

Additional observations from a re-analysis of the deposited data

How the results depend on the processing

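The median of the members stayed between -0.0058 and -0.011 with no pseudocount, 5 RPKM, at least 20 input reads or no overlapping genes, and was 0.03 after centring. On the authors' deposited score, which has another scale, it was 0.15, against 0.016 over all genes. Of 72 recomputed cluster medians 71 moved by less than their counting error or, for the score, held their sign, and the score of 47E was 0.021. Counts past the threshold rest on few genes. At least 0.5 was reached by 6 members with no pseudocount, 1 with 5 RPKM and 0 with at least 20 input reads. At most -0.5 was reached by 5 with no pseudocount and 0 with 5 RPKM. Shares of all genes past these thresholds were not computed with no pseudocount or with 5 RPKM. Whether the members' shares stay below the background at those settings is therefore not known. A threshold of 0.25 gave 18 and 17, and one of 1 gave 0 and 0. A gap of 50 kb gave the same 12 clusters by number. The cluster 64A has no value without overlapping genes. No paired analysis was possible because each group has 1 library. Low read counts per gene limit all values.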
